A study of Mus musculus with 6 samples.

Results

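The lysosome degrades proteins, sugars and lipids, and 41 genes that encode its enzymes, membrane proteins, proton pump subunits and regulators were followed in injured mouse cortex. The genes were taken by symbol from the deposited count table, which held all 41 among its 24421 gene symbols. RNA of whole tissue was sequenced from 6 cortex samples. All came from C57BL/6 mice with a blocked middle cerebral artery (MCAO), the usual surgical model of ischaemic stroke, so no uninjured cortex enters the comparison. In 3 samples the treatment was green fluorescent protein (GFP), the control, and in 3 it was NeuroD1, the proneural transcription factor, given as an intravenous gene therapy per the series title. The comparison asks how expression in stroke-injured cortex differs between these 2 treatments. Not given in the sources used here were the vector and its promoter, the age and sex of the animals, the time after the occlusion and whether each sample came from 1 animal. A p-value therefore reflects the spread of these samples only, and that spread may be technical.

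Lysosomal enzymes are made in the endoplasmic reticulum and tagged in the Golgi with mannose 6-phosphate, which sorting receptors recognise. They work in the acid lumen that a proton pump, the vacuolar ATPase, maintains behind a membrane coated with glycosylated proteins. Microglia and macrophages, which take up debris after a stroke, carry many lysosomes, and loss of single enzymes causes storage diseases that often affect the brain. The transcription factor TFEB and its relatives bind a short promoter element, known as the CLEAR element, in many lysosomal genes.

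Total counts ran from 7753101 to 9698795 with GFP and from 10843273 to 13440244 with NeuroD1. Levels are given as CPM, counts scaled to the same total in every library with TMM factors, and 1 count was worth 0.0753 to 0.134 CPM. Where a pair of levels or of 3-library runs follows a gene, the first is GFP (replicates 1, 2 and 3 in that order) and the second NeuroD1, and ± is the SD over 3 libraries. Neurod1 itself, with delivered and mouse transcripts not told apart, was at 6.48, 3.87 and 5.43 CPM in GFP replicates 1, 2 and 3 and at 48.5, 14.6 and 38.4 CPM in the NeuroD1 replicates, higher in each library labelled NeuroD1 than in any labelled GFP. The ribosomal RNA gene Rn45s took 7.25% of the counts of GFP replicate 2 and 0.220% to 1.22% in the other libraries. Neurons, astrocytes and oligodendrocytes were all represented, since every one of their 24 markers was tested.

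Most of the lysosomal genes had higher levels with NeuroD1. The fitted log2 fold change was above 0 in 37 of the 41 members, against 51.7% of all 14852 genes tested, and the median over the members was 0.80 against 0.02 over all genes. By edgeR's quasi-likelihood test 22 members had an unadjusted p under 0.05, all of them higher with NeuroD1, where 12.5% of all genes were higher by the same rule and 11.5% lower. In 18 members the 3 NeuroD1 libraries all lay above the 3 GFP libraries, against 14.2% of all genes, and in 0 they all lay below, against 15.3%. All 41 passed the filter on low counts.

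After Benjamini-Hochberg adjustment over all genes, 0 members passed with edgeR, as did 0% of all genes, and 0 passed with limma-voom (0%). The smallest edgeR adjusted p among the members was 0.136. DESeq2, an alternative test that makes more calls on these counts, had 13 members higher and 0 lower at an adjusted p under 0.05, against 5.04% of genes higher and 3.87% lower. The 13 were Ctsc, Ctss, Gla, Glb1, Gusb, Man2b1, Arsb, Lipa, Psap, Lamp2, Scarb2, Npc1 and Atp6v0d2. This count was 11, 1 and 2 when GFP replicate 1, 2 or 3 was left out and 2, 7 and 25 when NeuroD1 replicate 1, 2 or 3 was left out. Calls over all genes, 1366 with every library, moved in the same fits, to 2045, 165 and 225 and to 251, 999 and 2394.

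**Figure D1:**
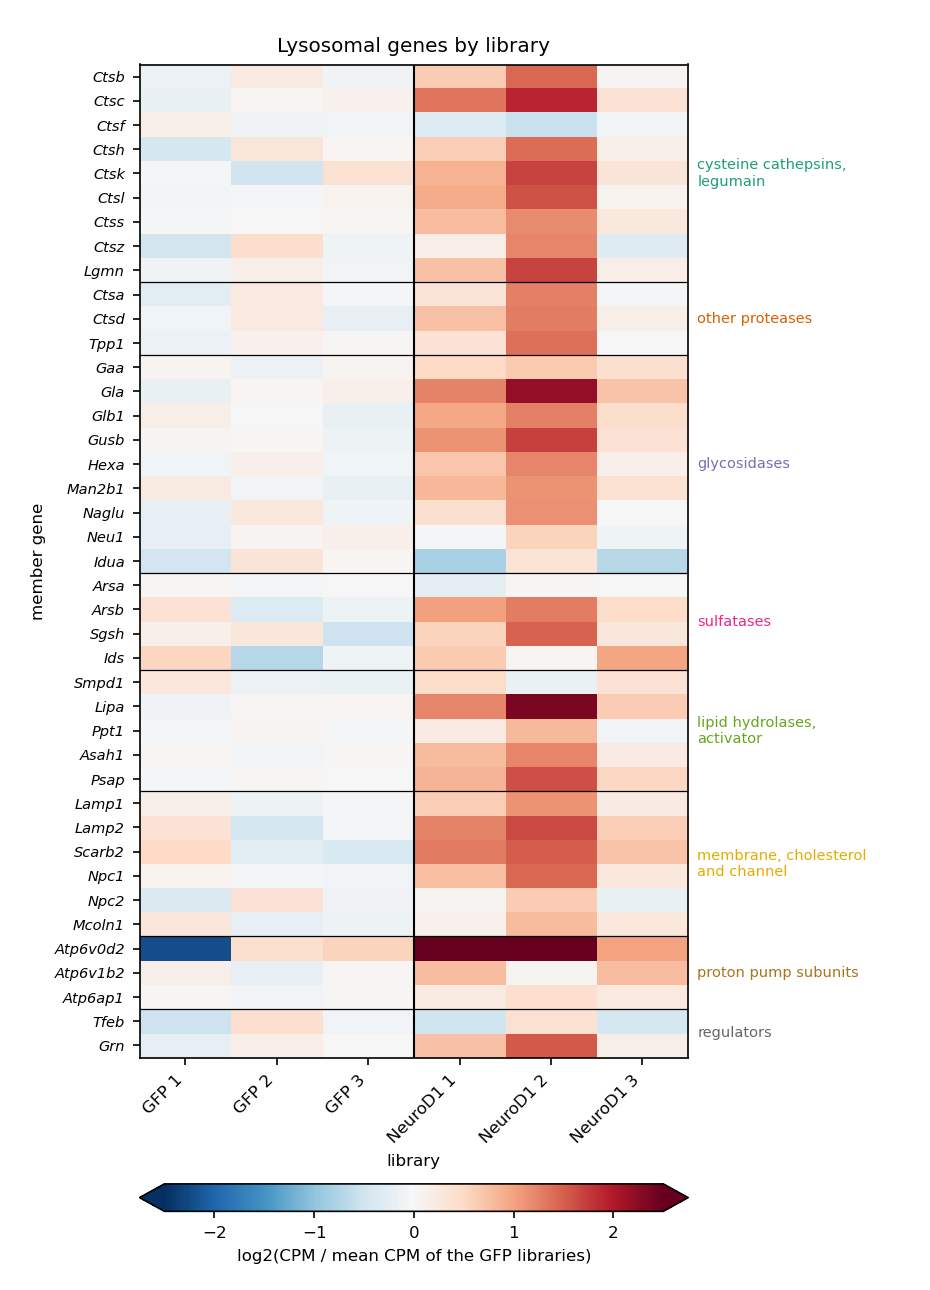
Level of each of the 41 lysosomal genes (rows, grouped by role) in each library (columns), as log2 of its CPM over the mean of the 3 GFP libraries. NeuroD1 replicate 2 is the deepest red column for most genes, with a median of 1.27, and NeuroD1 replicate 3 the palest of the NeuroD1 columns, with a median of 0.25.

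The 3 NeuroD1 libraries differed from each other in a common direction. NeuroD1 replicate 2 was the highest of the 6 libraries in 35 of the 41 members, against 29% of all genes, and NeuroD1 replicate 3 was the lowest NeuroD1 library in 32, against 34.8%. On the log2 scale the members' median level relative to the GFP mean was 0.70, 1.27 and 0.25 in NeuroD1 replicates 1, 2 and 3. NeuroD1 replicate 1 lay above all GFP libraries in 33 members, replicate 2 in 35 and replicate 3 in 21. The shares of all genes above every GFP library in a single NeuroD1 library were not counted. The coefficient of variation over the 3 NeuroD1 libraries had a median of 37.2% over the members, against 24.7% over all tested genes, and that over the GFP libraries 12.2%, against 19.0%. Over all genes the chi-square a gene between the counts of NeuroD1 replicate 3 and GFP replicates 1, 2 and 3 was 29.1, 105 and 34.9. Against NeuroD1 replicates 1 and 2 it was 38.1 and 126. This measure grows with total counts, which were highest in NeuroD1 replicate 1, so it cannot say which library lay nearest. In 39 of 41 members the coefficient of variation was larger among the NeuroD1 libraries. Its median over all tested genes was also larger with NeuroD1, and the share of genes with a larger value was not counted.

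Leaving out 1 library at a time kept the median of the members above 0. It was 0.75, 0.79 and 0.72 without GFP replicate 1, 2 or 3 and 0.81, 0.48 and 0.997 without NeuroD1 replicate 1, 2 or 3. The number of members higher at an unadjusted edgeR p under 0.05 was 13, 11 and 10 without GFP replicate 1, 2 or 3, against 14.2%, 6.53% and 6.13% of all genes in those fits. It was 16, 15 and 28 without NeuroD1 replicate 1, 2 or 3, against 7.79%, 12.2% and 15.3%. Of the 22 members, 9 stayed under 0.05 in all 6 of these fits, and they were Ctsc, Gla, Glb1, Gusb, Arsb, Lipa, Lamp2, Scarb2 and Atp6v0d2. Of the other 13, Ctsl, Ctss, Gaa, Hexa and Grn were under 0.05 in only 1 of the 6 fits. The share of all genes that stayed under 0.05 in all 6 fits was not counted, so the 9 have no baseline.

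**Figure D2:**
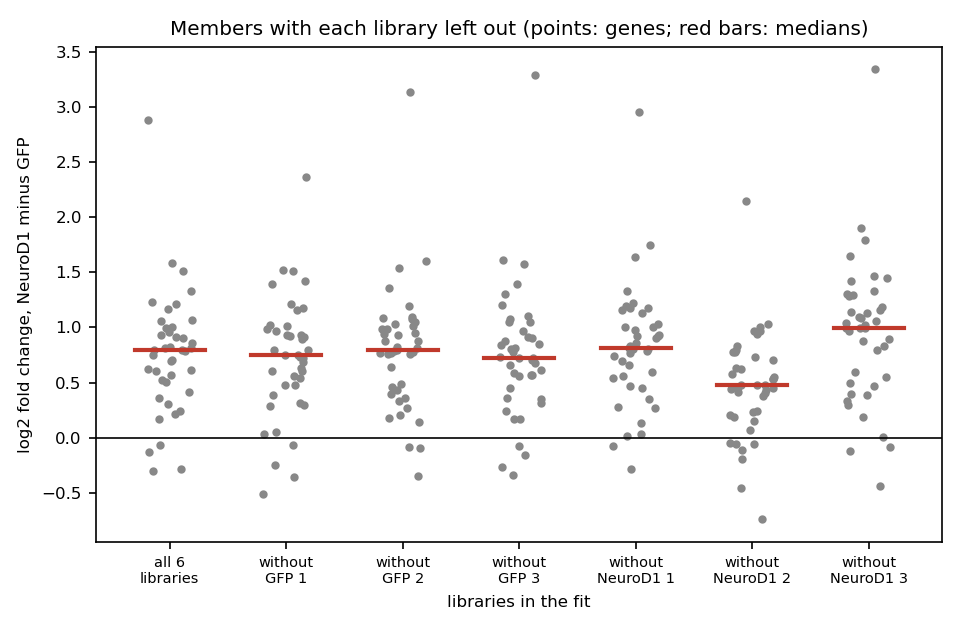
Log2 fold change (NeuroD1 minus GFP) of each of the 41 genes (points) and their median (red bar) in the fit of all 6 libraries and in the 6 fits that leave out 1 library. The medians lie between 0.48, without NeuroD1 replicate 2, and 0.997, without NeuroD1 replicate 3.

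The highest levels per transcript length belonged to a few members. Ctsd, the main aspartic protease of lysosomes, averaged 4119 CPM per kb of transcript with GFP and 7153 with NeuroD1, and made up 30.5% to 35.0% of the summed CPM of the 41 members in any library. Psap came next at 1076 and 2258 CPM per kb, followed by Ctsb at 979 and 1730.2 and Ctss at 695 and 1199.9. Sgsh, Atp6v0d2 and Ctsk had the lowest means over both groups, with Atp6v0d2 at 2.39 CPM per kb with GFP and 17.6 with NeuroD1. The order of neighbours such as Psap and Ctsb with GFP rests on 1 annotated transcript length per gene.

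**Figure D3:**
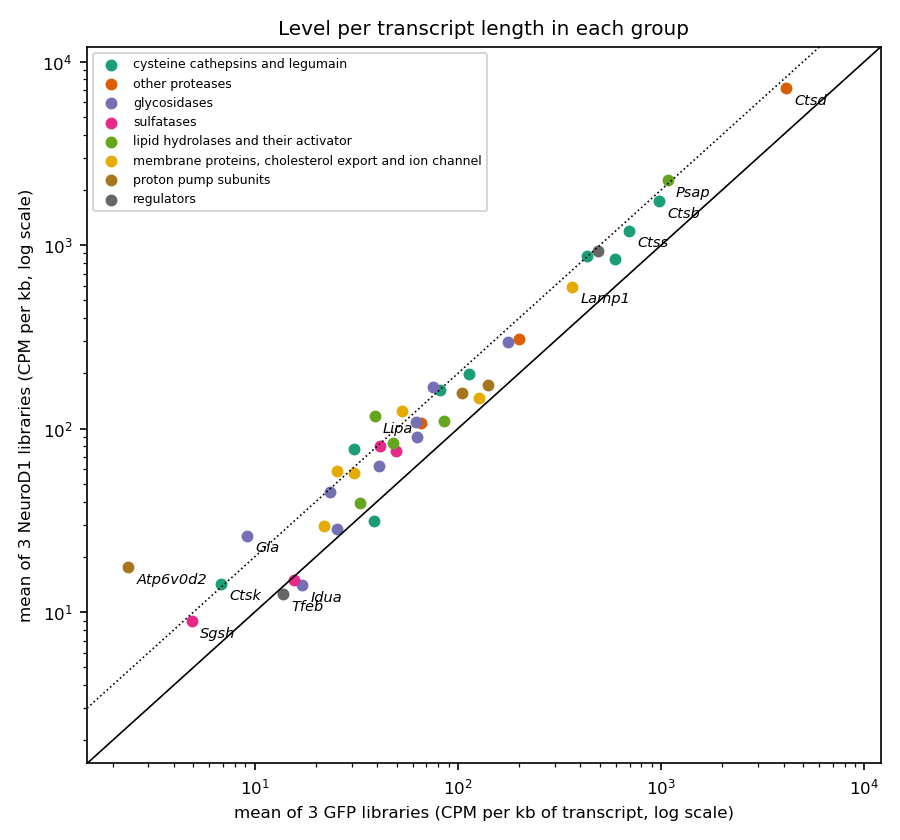
Mean level of each member in the GFP libraries (x axis) and the NeuroD1 libraries (y axis), in CPM per kb of transcript on log scales, coloured by role. The solid line marks equal levels and the dotted line levels in NeuroD1 that are 2 times those in GFP, and Atp6v0d2 lies furthest above it.

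Tfeb, the transcription factor gene, did not share the higher levels. It was at 22.2, 42.3 and 30.1 CPM in GFP replicates 1, 2 and 3 and 22.4, 40.8 and 23.3 CPM in the NeuroD1 replicates, so the groups overlapped throughout, and its log2 fold change was -0.13 (SE 0.32, edgeR adjusted p = 0.827). The gene of progranulin, Grn, whose protein is delivered to lysosomes and is linked to frontotemporal dementia and to lysosomal storage, was at 1002, 1295 and 1144 CPM with GFP and 1906, 3298 and 1274 CPM with NeuroD1. NeuroD1 replicate 3 lay below GFP replicate 2, and Grn was 1.88-fold higher at an edgeR adjusted p of 0.201.

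The promoter element that TFEB and its relatives bind has the core CACGTG, which other E-box factors also bind. Promoter windows of 300 bases, 250 before to 50 after the start site, were at hand for 35 of the 41 members in RefSeq's table of GRCm38.p6. Both motifs searched, CACGTG and TCACGTGA, read the same on both strands. The core stood in the windows of 13 of these 35 members (37.1%), against 8.09% of all 27025 genes with a window and 11.3% of the tested genes with one. The longer TCACGTGA, which contains the core, stood in 4 members (11.4%), against 1.12% of all and 2.02% of tested genes. The sequences shown are those with the longer form, the run of cores in Lamp1, and the single cores of members with an unadjusted p under 0.05. They are written in the direction of the gene on GRCm38.p6, with core or longer form in capitals.
Ctsa (chr2:164833746-164833798, plus strand): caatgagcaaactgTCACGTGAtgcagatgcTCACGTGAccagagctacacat
Ctsd (chr7:142387905-142387940, minus strand): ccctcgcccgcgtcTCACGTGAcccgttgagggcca
Gla (chrX:134601179-134601247, minus strand): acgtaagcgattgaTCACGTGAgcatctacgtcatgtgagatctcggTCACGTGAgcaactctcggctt
Mcoln1 (chr8:3500433-3500494, plus strand): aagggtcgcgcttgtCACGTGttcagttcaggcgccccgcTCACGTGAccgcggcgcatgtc
Lamp1 (chr8:13159085-13159166, plus strand): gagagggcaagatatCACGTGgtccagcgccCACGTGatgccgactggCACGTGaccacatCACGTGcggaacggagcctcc
Ctsl (chr13:64370736-64370770, minus strand): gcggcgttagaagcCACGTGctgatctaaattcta
Lgmn (chr12:102439121-102439156, minus strand): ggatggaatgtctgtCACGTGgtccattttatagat
Gaa (chr11:119267808-119267843, plus strand): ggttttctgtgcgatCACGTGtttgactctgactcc
Glb1 (chr9:114401015-114401050, plus strand): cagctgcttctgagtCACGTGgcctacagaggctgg
Sgsh (chr11:119355519-119355554, minus strand): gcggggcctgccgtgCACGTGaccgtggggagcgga
Gla and Ctsa each hold the longer form 2 times within the stretch shown, and Lamp1 holds the core 4 times. A second core of Ctsd lies outside the stretch shown, and cores also stood in Ctsf, Naglu and Arsa. The 13 members with a core had a median log2 fold change of 0.70 and the 22 without one 0.77, with 6 and 12 members at an unadjusted edgeR p under 0.05. The first core of the stretch shown began 12 bases before the RefSeq start site in Ctsa, 61 in Lamp1, 98 in Ctsd and 227 in Gla. A match in the window is a description of its letters, and binding was not measured.

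Among the cysteine cathepsins and legumain, 6 of 9 members were higher at an unadjusted edgeR p under 0.05, against 12.5% of all genes. The median log2 fold change of this class was 0.82. Ctsc encodes the dipeptidyl peptidase that activates serine proteases of immune cell granules. It was at 67.4, 79.6 and 83.1 CPM in GFP replicates 1, 2 and 3 and 195, 285 and 98.5 CPM in the NeuroD1 replicates. The groups did not overlap, and the difference was 2.51-fold (log2 fold change 1.33, SE 0.36, edgeR adjusted p = 0.138). Ctss, whose enzyme trims the invariant chain in antigen-presenting cells, was at 921, 949 and 954 CPM with GFP and 1612, 2131 and 1134 CPM with NeuroD1. Its GFP libraries lay close together and all below the NeuroD1 libraries (1.73-fold, edgeR adjusted p = 0.182). Lgmn, the asparaginyl endopeptidase that processes cathepsins, was at 816, 951 and 821 CPM and 1425, 2789 and 974 CPM, again without overlap (2.004-fold, edgeR adjusted p = 0.189).

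In the other members of this class at least 1 NeuroD1 library lay within the range of the GFP libraries. Ctsl, an endopeptidase gene, was at 481, 493 and 538 CPM with GFP and 963, 1517 and 538 CPM with NeuroD1 (1.99-fold, edgeR adjusted p = 0.173), with NeuroD1 replicate 3 level with GFP replicate 3. Ctsk, the collagen-degrading protease known from osteoclasts, was at 10.1, 7.35 and 13.5 CPM and 18.8, 33.2 and 12.9 CPM (2.09-fold, edgeR adjusted p = 0.165). Ctsh, an aminopeptidase gene, was at 135, 224 and 189 CPM and 279, 478 and 202 CPM (1.75-fold, edgeR adjusted p = 0.208). In both, GFP replicates 2 or 3 reached the level of NeuroD1 replicate 3. Ctsb, the member of this class with the highest level per length, was at 4183, 5395 and 4349.7 CPM with GFP and 7162, 12584 and 4872 CPM with NeuroD1, and its difference of 0.82 on the log2 scale had an SE of 0.45 (edgeR adjusted p = 0.285). Ctsz averaged 851 ± 272 and 1206 ± 690.4 CPM (SD, n = 3 each) and Ctsf 76.5 ± 6.92 and 61.8 ± 10.3 CPM. Ctsf was the member with the lowest log2 fold change, -0.31 (SE 0.20), and 1 of 4 members below 0.

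**Figure D4:**
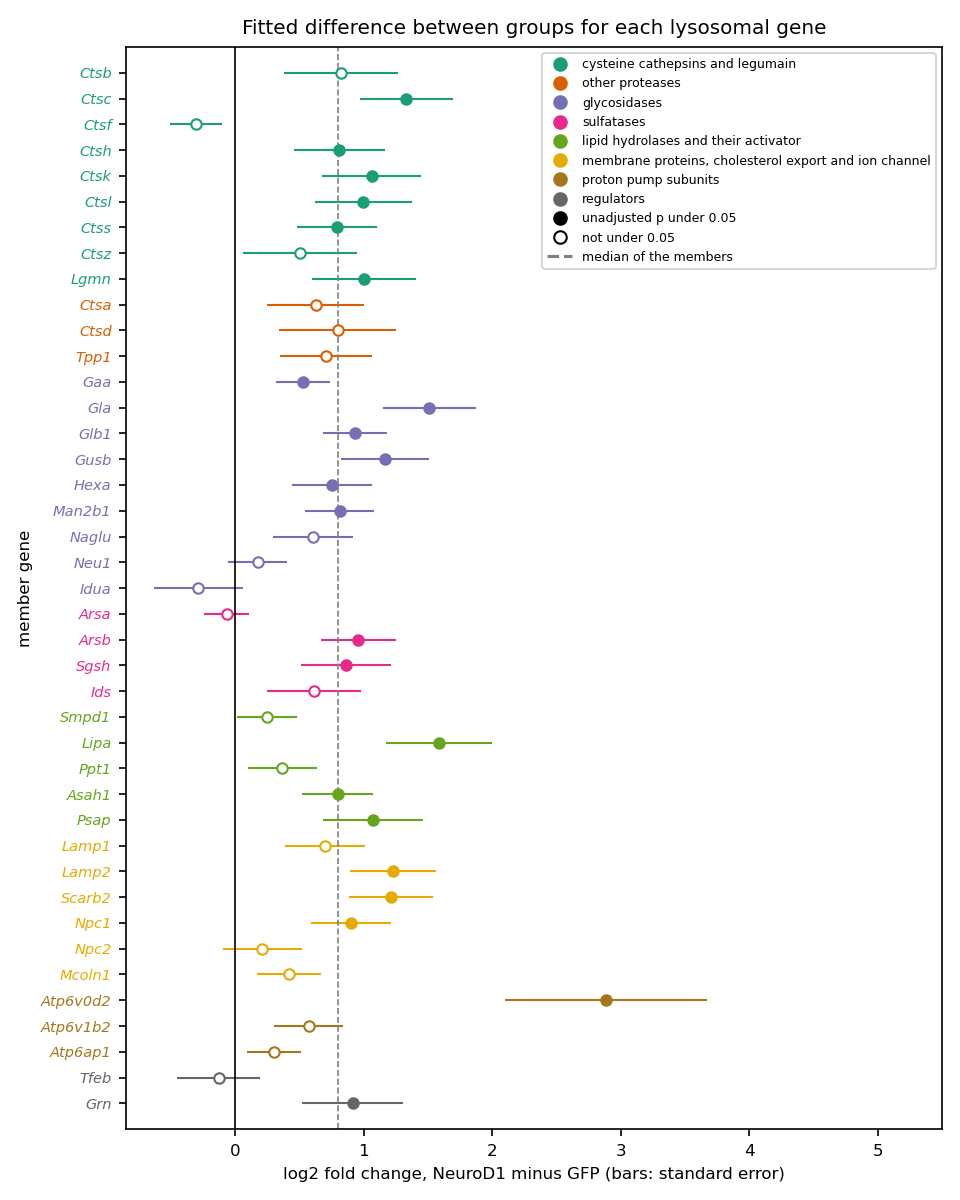
Log2 fold change (NeuroD1 minus GFP) of each member with its standard error, coloured by role. Filled points have an unadjusted edgeR p under 0.05, all of them above 0, and the dashed line is the median of the members, 0.80.

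The other 3 proteases all had higher means and none reached an unadjusted edgeR p of 0.05. Ctsd was at 8318, 10349 and 7616 CPM in GFP replicates 1, 2 and 3 and 14623, 21356 and 9663 CPM in the NeuroD1 replicates, so NeuroD1 replicate 3 lay below GFP replicate 2. Its log2 fold change was 0.80 (SE 0.46, edgeR adjusted p = 0.308). The gene of the tripeptidyl peptidase lost in a childhood form of neuronal ceroid lipofuscinosis, Tpp1, averaged 234 ± 21.0 and 382 ± 200.1 CPM. Ctsa, the carboxypeptidase that stabilises beta-galactosidase and neuraminidase, averaged 725 ± 125 and 1119 ± 554 CPM.

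Of the 9 glycosidases, 6 were higher at an unadjusted edgeR p under 0.05, against 12.5% of all genes. The median log2 fold change was 0.75. Gla, the alpha-galactosidase that is deficient in Fabry disease (chromosome X, 134588149 to 134601125, GRCm38), was at 25.4, 30.2 and 31.5 CPM with GFP and 68.2, 133 and 47.6 CPM with NeuroD1. Every NeuroD1 library lay above every GFP library, and Gla was 2.85-fold higher (log2 fold change 1.51, SE 0.36, edgeR adjusted p = 0.136). Leaving out any 1 library gave folds of 2.003 to 3.47 for Gla, and DESeq2 gave an adjusted p of 0.0051. Gusb, the beta-glucuronidase that acts on glycosaminoglycans, was at 212, 210.1 and 184 CPM and 439, 661 and 258 CPM, a 2.24-fold difference (edgeR adjusted p = 0.14). Glb1, the beta-galactosidase that acts on GM1 ganglioside, was at 62.5, 57.0 and 49.98 CPM and 110.5, 136 and 76.9 CPM, also without overlap between the groups (1.91-fold, edgeR adjusted p = 0.137). Its exons share 165 bases with Tmppe, a gene on the same strand that averaged 19.7 CPM with GFP and 29.3 CPM with NeuroD1, so some reads may belong to either.

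The other glycosidases had smaller differences. Gaa, which breaks down lysosomal glycogen, was at 239, 205 and 241 CPM with GFP and 324, 361 and 302 CPM with NeuroD1, 1.44-fold higher with no overlap (edgeR adjusted p = 0.188). Man2b1, an alpha-mannosidase gene, was at 276, 226 and 208 CPM and 421, 517 and 309 CPM (1.76-fold, edgeR adjusted p = 0.147). Hexa, the alpha subunit of the hexosaminidase lost in Tay-Sachs disease, was at 335, 386 and 339 CPM and 573, 827 and 386 CPM, where NeuroD1 replicate 3 and GFP replicate 2 had nearly the same level (1.68-fold, edgeR adjusted p = 0.192). Naglu, which acts on heparan sulfate, averaged 105 ± 19.0 and 159.7 ± 65.6 CPM and Neu1, the sialidase gene, 62.6 ± 7.63 and 70.6 ± 18.6 CPM. Idua, which acts on dermatan and heparan sulfate, averaged 60.3 ± 16.1 CPM with GFP and 49.4 ± 23.4 CPM with NeuroD1. Its log2 fold change of -0.29 (edgeR adjusted p = 0.619) was -0.74 without NeuroD1 replicate 2, the fit in which it was the 1 member lower at an unadjusted edgeR p under 0.05.

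Of the 4 sulfatases, 2 were higher at an unadjusted edgeR p under 0.05, against 12.5% of all genes, and the others were not. Arsb, which removes sulfate from dermatan and chondroitin sulfate, was at 214, 132 and 153 CPM in GFP replicates 1, 2 and 3 and 337, 404 and 229 CPM in the NeuroD1 replicates, with no overlap (1.94-fold, log2 fold change 0.96, SE 0.30, edgeR adjusted p = 0.141). Sgsh, which acts on heparan sulfate, was at 23.2, 26.0 and 14.9 CPM and 31.6, 59.0 and 26.0 CPM, with GFP replicate 2 level with NeuroD1 replicate 3 (1.82-fold, edgeR adjusted p = 0.189). Arsa, the enzyme for myelin sulfatide, had almost equal means of 54.6 ± 1.84 CPM with GFP and 52.1 ± 4.63 CPM with NeuroD1 (log2 fold change -0.07, SE 0.17). Ids, the iduronate sulfatase gene and the sulfatase with the highest level per length, was at 358, 151 and 230.2 CPM and 389, 256 and 485 CPM. Its order of libraries differed from most members, with NeuroD1 replicate 2 the lowest of its group and the groups overlapping (edgeR adjusted p = 0.328).

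Among the lipid hydrolases and their activator, 3 of 5 were higher at an unadjusted edgeR p under 0.05, each without overlap between the groups. Of all genes, 12.5% were higher by this rule and 14.2% were higher without overlap. Lipa, the acid lipase that splits cholesteryl esters and triglycerides taken up by phagocytes (chromosome 19, 34492318 to 34527474), was at 109, 119 and 119.8 CPM with GFP and 269, 592 and 180.4 CPM with NeuroD1. It was 2.999-fold higher (log2 fold change 1.58, SE 0.41, edgeR adjusted p = 0.136) and 1.95-fold higher without NeuroD1 replicate 2, with a DESeq2 adjusted p of 0.00595 over all libraries. Psap encodes the precursor of the saposins, which present lipids to their hydrolases. It was at 2789, 2899.8 and 2886 CPM and 5152, 8730.3 and 4119 CPM, so the GFP libraries were nearly equal and the lowest NeuroD1 library lay well above them (2.10-fold, edgeR adjusted p = 0.167). Asah1, the acid ceramidase gene, was at 138, 127 and 135 CPM and 229, 310.1 and 154 CPM (1.74-fold, edgeR adjusted p = 0.157). Ppt1, a palmitoyl-protein thioesterase gene, averaged 203 ± 7.83 and 262 ± 86.5 CPM and Smpd1, the acid sphingomyelinase gene, 79.8 ± 14.2 and 94.6 ± 20.5 CPM. Smpd1 was lowest in NeuroD1 replicate 2 among the NeuroD1 libraries, as Ids was.

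Of the 6 genes for membrane proteins, cholesterol export and the ion channel, 4 had groups that did not overlap. All 4 were higher with NeuroD1, and 14.2% of all genes were higher without overlap. Lamp2, a heavily glycosylated membrane protein needed for autophagy, was at 247, 141 and 186 CPM in GFP replicates 1, 2 and 3 and 455, 598 and 292 CPM in the NeuroD1 replicates (2.34-fold, log2 fold change 1.23, SE 0.33, edgeR adjusted p = 0.138). Scarb2, which encodes the receptor that carries glucocerebrosidase to lysosomes, was at 169, 98.4 and 91.1 CPM and 292, 343 and 195 CPM (2.32-fold, edgeR adjusted p = 0.137). GFP replicate 1 was the highest control for both genes and still lay below NeuroD1 replicate 3. Npc1, the membrane protein that exports cholesterol, was at 171, 156 and 154 CPM and 269, 436 and 194 CPM (1.87-fold, edgeR adjusted p = 0.155). Lamp1, the most abundant of these genes per length, was at 904, 747 and 794 CPM and 1249, 1774 and 944 CPM (1.62-fold, edgeR adjusted p = 0.213). Npc2, the soluble partner of Npc1, averaged 418 ± 108 CPM with GFP and 484 ± 145 CPM with NeuroD1, with a log2 fold change of 0.21 (SE 0.31). Mcoln1, the calcium channel gene TRPML1, averaged 45.4 ± 8.55 and 60.7 ± 16.1 CPM.

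Atp6v0d2 had the largest fold of the 41 members. It encodes an isoform of the membrane sector's d subunit of the proton pump that is known from osteoclasts and macrophages (chromosome 4, 19876841 to 19922605). It had 13, 60 and 82 counts with GFP and 542, 836 and 136 counts with NeuroD1, or 1.32, 8.01 and 8.91 CPM and 40.8, 80.9 and 12.2 CPM. Every NeuroD1 library lay above every GFP library, with NeuroD1 replicate 3 close to GFP replicate 3. The difference was 7.38-fold (log2 fold change 2.88, SE 0.79, edgeR adjusted p = 0.138) and 4.43-fold without NeuroD1 replicate 2, with a DESeq2 adjusted p of 0.00366 over all libraries. The other 2 pump genes had smaller differences than Atp6v0d2. Atp6ap1, an accessory subunit, was at 316, 295 and 314 CPM and 358, 414 and 367 CPM, without overlap but only 1.23-fold apart (edgeR adjusted p = 0.392). Atp6v1b2, the B subunit isoform abundant in brain, averaged 296 ± 35.3 CPM with GFP and 439.8 ± 113 CPM with NeuroD1 (edgeR adjusted p = 0.233). NeuroD1 replicate 2 was its lowest NeuroD1 library. The log2 fold change of 0.57 was 0.78 without that library and 0.47 to 0.63 with any other library left out.

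Other genes of the lysosomal pathway, 119 in 6 lists, had a lower median. Of the 115 tested, 39 were higher and 2 lower at an unadjusted edgeR p under 0.05, against 12.5% and 11.5% of all genes, with a median log2 fold change of 0.42, and 0 passed after adjustment. DESeq2 had 20 of 116 higher and 1 lower at an adjusted p under 0.05, against 5.04% and 3.87% of all genes. Of 34 other hydrolases 15 were higher (median 0.69), with Hpse, the heparanase gene, at 13.1, 27.1 and 29.1 CPM with GFP and 71.6, 136 and 42.0 CPM with NeuroD1 (3.61-fold). Acp5, the tartrate-resistant acid phosphatase, was at 5.16, 14.4 and 15.3 and 39.8, 65.5 and 22.2 CPM (3.66-fold, edgeR adjusted p = 0.137 against 0.136 for Hpse). Among 28 other membrane and transport proteins 12 were higher and 1 lower (median 0.53). The nucleoside transporter gene Slc29a3 averaged 40.6 ± 4.14 and 99.1 ± 33.9 CPM (2.44-fold) and the channel gene Mcoln3 1.27 ± 0.526 and 8.72 ± 5.15 CPM (6.69-fold), with edgeR adjusted p = 0.136 and 0.136.

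Proton pump subunits outside the members had a median of 0.15, and 3 of 16 were higher, against 12.5% of all genes. These included Atp6v1a, the catalytic A subunit (193 ± 63.8 CPM with GFP and 424 ± 113 CPM with NeuroD1, 2.20-fold, edgeR adjusted p = 0.139), and the accessory subunit Atp6ap2 (109 ± 21.1 and 209.8 ± 10.5 CPM, 1.93-fold, edgeR adjusted p = 0.136). In the enzyme sorting list 5 of 13 were higher, against the same 12.5% (median 0.46). Igf2r, the cation-independent mannose 6-phosphate receptor, averaged 48.0 ± 8.15 and 139 ± 63.7 CPM (2.90-fold, edgeR adjusted p = 0.136), and Gnptab, the enzyme that starts the mannose 6-phosphate tag, 82.8 ± 4.66 and 185 ± 58.6 CPM (2.24-fold, edgeR adjusted p = 0.136). Among 19 genes of the TFEB family and nutrient signalling 4 were higher, again against 12.5% of all genes (median 0.27). The smallest unadjusted p belonged to Fnip2 and Fnip1, partners of folliculin in nutrient sensing, which were 2.66-fold and 1.73-fold higher (edgeR adjusted p = 0.136 and 0.139).

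Cathepsin inhibitors had a median below 0, at -0.32 over 5 tested genes, 1 of them lower and 0 higher at an unadjusted edgeR p under 0.05, against 11.5% and 12.5% of all genes. Cst3, the gene of the secreted cysteine protease inhibitor cystatin C, was at 2277, 3004 and 2211 CPM in GFP replicates 1, 2 and 3 and 1304, 1049 and 1567 CPM in the NeuroD1 replicates. All NeuroD1 libraries lay below all GFP libraries, and Cst3 was 1.91-fold lower (log2 fold change -0.93, SE 0.31, edgeR adjusted p = 0.148, DESeq2 adjusted p = 0.0118). Serpinb6a, a serpin gene, averaged 63.4 ± 5.49 CPM and 104 ± 52.5 CPM (edgeR adjusted p = 0.233).

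Summed phagocyte markers were high and low in the same NeuroD1 libraries as the lysosomal genes. The summed level of the 41 members was 25310.2, 29567 and 24984 CPM in GFP replicates 1, 2 and 3 and 43051, 67463 and 30536 CPM in the NeuroD1 replicates. The 11 markers of infiltrating monocytes and macrophages summed to 861, 2253 and 2161 CPM and 5389, 8213 and 2653 CPM, with 8 of 10 tested markers higher at an unadjusted edgeR p under 0.05. By that rule, used for each marker list, 12.5% of all genes were higher and 11.5% lower. NeuroD1 replicates had the same order in both sums, replicate 2 highest and replicate 3 lowest. The 12 markers shared by microglia and macrophages summed to 5426, 8576 and 6797 CPM and 7643, 11944 and 5897 CPM, so those groups overlapped, and their median log2 fold change was 0.22 with 4 higher. The 9 homeostatic microglia markers summed to 2727, 2771 and 2399 CPM and 3688, 4429.7 and 2666 CPM, with a median of 0.20, 0 higher and 1 lower. Cd68, itself lysosomal, counts among the markers shared by microglia and macrophages. No marker of these 3 lists was at 0 in all libraries. The part of these cells in the lysosomal differences was not tested, and in bulk tissue more cells of a type and more RNA per cell cannot be told apart.

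**Figure D5:**
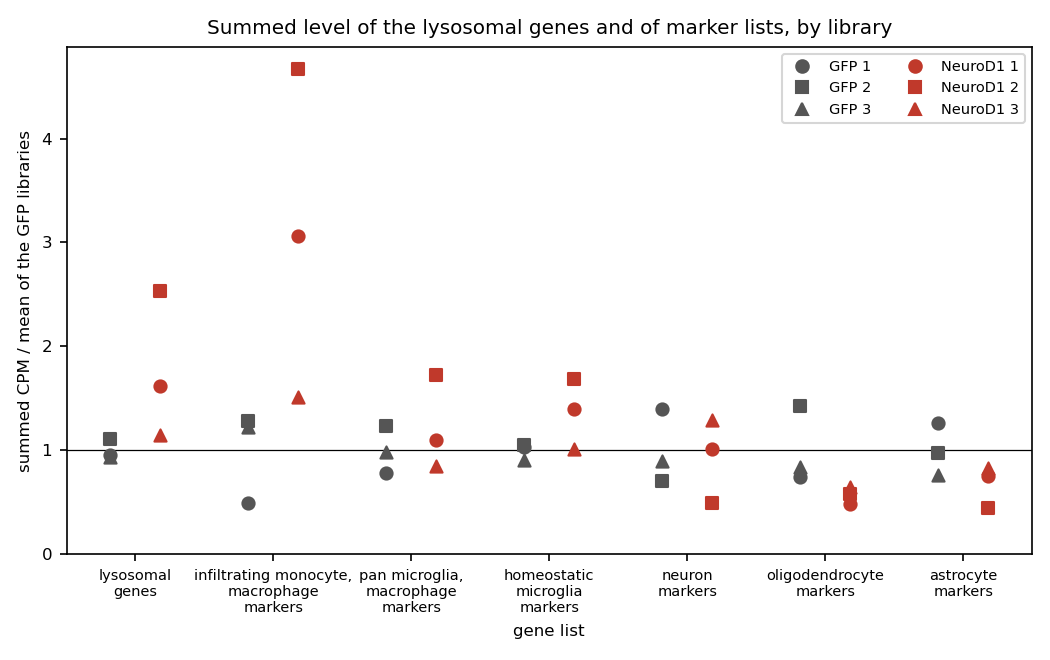
Summed CPM of the 41 lysosomal genes and of 6 marker lists in each library, divided by the mean of the 3 GFP libraries (grey, GFP; red, NeuroD1; the symbol gives the replicate). NeuroD1 replicate 2 is the highest library for the lysosomal genes and the 3 phagocyte lists and the lowest for the neuron markers.

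Other cell types also differed between libraries. Markers counted as higher or lower had an unadjusted edgeR p under 0.05, where 12.5% of all genes were higher and 11.5% lower. Neuron markers summed to 9246, 4699 and 5954 CPM with GFP and 6715, 3297 and 8576 CPM with NeuroD1, with NeuroD1 replicate 2 the lowest, as it was within its group for Ids, Smpd1 and Atp6v1b2. The 6 fibroblast markers summed to 746, 728 and 1496 CPM and 3328, 5656 and 1376 CPM, all 6 higher at an unadjusted edgeR p under 0.05, and NeuroD1 replicate 2 was again the highest. Summed oligodendrocyte markers were at 10878, 20939 and 12292 CPM and 7070.4, 8508 and 9529 CPM, with 3 of 7 lower. Astrocyte markers summed to 15399, 11907 and 9254 CPM and 9214, 5453 and 10077 CPM, with 2 of 7 lower. Endothelial markers were at 403, 582 and 392.04 CPM and 174, 229.5 and 310.3 CPM, with 5 of 7 lower, and pericyte and smooth muscle markers at 161, 339 and 248 CPM and 128, 323 and 137 CPM, with 5 of 6 lower. The 5 osteoclast markers summed to 7.19, 17.1 and 21.0 CPM and 41.05, 67.2 and 23.7 CPM, most of it Acp5. Of the 2 that were tested, Acp5 was higher and Oscar, at 3.15 ± 1.72 and 0.770 ± 0.447 CPM, lower (log2 fold change -2.03, SE 0.59), both at an unadjusted edgeR p under 0.05. Calcr, Ocstamp and Dcstamp averaged 0.0890, 0.142 and 0.0724 CPM with GFP and 0.157, 0.252 and 0.280 CPM with NeuroD1, below the filter on low counts. Precursor markers of oligodendrocytes had 3 of 5 higher at the same threshold and lymphocyte markers 2 of 3 tested. Pdgfra stands in both the precursor and the fibroblast lists and was among the higher markers of both. Neutrophil markers summed to 103, 196 and 134 CPM and 80.7, 137 and 80.6 CPM, so the groups overlapped with lower sums in NeuroD1 replicates 1 and 3 than in any GFP library. Of the 3 tested, 1, Mmp9, was higher at that threshold (log2 fold change 1.15) and 0 were lower, and Csf3r, which made up most of the sum, had a log2 fold change of -0.66 (SE 0.30).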

How the data were processed

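The deposited values are raw counts, 1 row for each gene symbol. Per the file headers, featureCounts assigned reads by gene_id with a gene file for mm10. The submitters' processing notes also list GRCm38, HISAT2 2.0.1 and DESeq2 1.16.1. Not given in the sources used here were the strand setting, the annotation release and how reads mapping to several places were treated, so reads of overlapping genes cannot be told apart. Exons of 15 members overlap another annotated gene, by at most 1948 bases (Arsb). Columns were matched to samples by the labels, and 0 were unused.

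The test was the quasi-likelihood F-test in edgeR 4.0.16 under R 4.3.3. TMM factors scaled the libraries, treatment was the 1 term of the model, and genes passed filterByExpr (minimum count 10, minimum total 15), which kept 14852 genes. Benjamini-Hochberg adjustment ran over all of them, with a threshold of 0.05. Standard errors came from the F statistic, and SDs are over 3 libraries. DESeq2 1.42.0 and limma 3.58.1 were alternatives, and all tests were tested on simulated data. Lengths are those of 1 GENCODE M21 (GRCm38) transcript per gene, the longest protein-coding one tagged as principal. Counts of libraries in 1 group differed by a chi-square of 33.8 to 126 a gene and those across groups by 29.1 to 165, so no 2 were taken as duplicates.

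Members in full are those with an unadjusted p under 0.05, with groups that do not overlap, or with the highest level per length of their role, and the 2 genes with the smallest p of each other pathway list. The members and lists were chosen with earlier results of these data known.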

Additional observations from a re-analysis of the deposited data

How the results depend on the processing

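The median log2 fold change of the members was between 0.70 and 0.82 under the other tests, scalings, filters and offsets, and between 0.48 and 0.997 with 1 library left out. With 1 library left out, the members higher at an unadjusted edgeR p under 0.05 numbered between 10 and 28. Of all genes, 6.13% were higher in the fit with 10 and 15.3% in the fit with 28. With upper quartile scaling 15 members were higher, against 9.94% of all genes. The members lower numbered 0 or, without NeuroD1 replicate 2, 1. Over all genes DESeq2 called 1366 and 13 members. With DESeq2 and a library left out, a choice made after seeing the data, the calls over all genes were 2045, 165 and 225 without GFP replicate 1, 2 or 3 and 251, 999 and 2394 without NeuroD1 replicate 1, 2 or 3, with 11, 1, 2, 2, 7 and 25 members among them. In edgeR 0 or, without NeuroD1 replicate 2, 1 gene was called, and 0 members. The replicate block called 479 genes and 0 members. With it 23 members were higher at an unadjusted edgeR p under 0.05, against 17.8% of all genes, a larger share than the 12.5% of the main fit. Deviations of same-numbered libraries from their group means correlated at 0.54, 0.37 and 0.04 for numbers 1, 2 and 3. GFP replicates 1 and 2 correlated best with their own numbers, and GFP replicate 3 with NeuroD1 replicate 2 (0.13). These values do not settle whether the numbers are pairs, and the main fit used no replicate block. Among 40 genes named, 512 values kept their direction and their side of the unadjusted threshold of 0.05, 69 lost it and 18 gained it. The cause of these changes was not tested. With 3 libraries a group an exact permutation test cannot go below 0.1.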
